A study of Mus musculus with 4 samples.

Results

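In all, 8 long noncoding RNAs (lncRNAs) were followed across C2C12 differentiation. Malat1 and Neat1 are retained in the nucleus, Lincmd1 (linc-MD1) is a muscle lncRNA, and Gas5, Snhg1, Snhg3, Snhg8 and Snhg12 carry small nucleolar RNAs (snoRNAs) in their introns. They were chosen by name, as the entries whose identifier equals one of these 8 symbols, out of 24438 gene symbols in the polyA RNA tables. Of the 8, 7 were listed under that symbol in the total RNA tables. The remaining member, Lincmd1, was listed as Linc-md1, a RefSeq synonym, with the same locus as in the polyA tables, and was taken from that entry.

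C2C12 is a mouse myoblast line whose cells fuse into myotubes in differentiation medium (DM), a low-serum medium. Total RNA depleted of rRNA was sequenced from myoblasts (MB) at DM -24 h and from myotubes (MT) at DM 72 h, with no transfection named in the labels. PolyA-selected RNA was sequenced from differentiating cells at DM 48 h that had been transfected with a control siRNA (si-NC) or with an siRNA against hnRNPL (si-hnRNPL), an RNA-binding protein. Each of these 4 conditions had 1 library, so differences are described with no test. Values are FPKM, fragment numbers scaled by transcript length and by the mapped fragments of the library, each with the 95% interval given by Cufflinks. Variation between cultures is outside these intervals, which reflect the counting of fragments and their assignment to transcripts. The polyA libraries were less precise: the half-width for Snhg1 was 4.38% of its value in MB, 5.96% in MT, 10.7% in si-NC and 14.7% in si-hnRNPL. In bulk RNA, fewer cells of a type and less RNA per cell cannot be told apart.

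Muscle and proliferation markers separated MB from MT. All 8 differentiated muscle genes were higher in MT than in MB (summed 16.8 FPKM in MB and 1901 FPKM in MT), and all 5 proliferation genes were lower (515 and 88.8 FPKM). The myoblast genes were not lower in MT: Myod1 had 36.6 and 65.9 FPKM, Des 98.7 and 195 FPKM, and Myf5 13.8 and 13.6 FPKM. The 5 genes of leukocytes, endothelium, epithelium and fat (Ptprc, Pecam1, Cdh5, Epcam, Adipoq) summed to 0.0236 to 0.0533 FPKM in the 4 libraries. Changes are given as log2((FPKM + 1) ratio), and an entry was called higher or lower at 0.58, which is close to the 1.5-fold change the study used.

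Malat1 lies in nuclear speckles, bodies rich in splicing factors, and Neat1 is the scaffold of paraspeckles. The main form of Malat1 has no long polyA tail: its end is made by RNase P and folds into a triple helix. The Neat1 locus gives a short polyadenylated and a long non-polyadenylated form that share their start. The snoRNAs of a host gene are cut from its introns after splicing and guide chemical modification of other RNAs, chiefly rRNA, while the spliced host RNA of Gas5 and several Snhg genes is translated briefly and then degraded by nonsense-mediated decay. Many snoRNA hosts are known as 5′ TOP genes, whose transcripts begin with a run of pyrimidines and whose translation follows growth signals. Linc-MD1 is known as a cytoplasmic RNA that binds muscle microRNAs, and it shares its locus with Mir133b and Mir206.

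The 5 host genes are shown first at their starts, because a run of C or T there is the letter pattern of a 5′ TOP. The windows are RefSeq sequence of build GRCm38.p6, from 20 bases before to 30 bases from the transcript start onward, and capitals mark the longest run of at least 5 C or T that begins within 5 bases of the start.
Gas5 (chr1:161035146-161035195, plus strand): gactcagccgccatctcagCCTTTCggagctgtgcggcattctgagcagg
Snhg1 (chr19:8723467-8723516, plus strand): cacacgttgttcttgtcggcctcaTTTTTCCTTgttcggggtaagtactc
Snhg3 (chr4:132353657-132353706, minus strand): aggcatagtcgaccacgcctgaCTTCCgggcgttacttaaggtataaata
Snhg8 (chr3:123508307-123508356, minus strand): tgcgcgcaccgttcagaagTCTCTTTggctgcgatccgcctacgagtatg
Snhg12 (chr4:132308658-132308707, plus strand): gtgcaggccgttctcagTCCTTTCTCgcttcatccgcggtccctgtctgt
All 5 host genes had such a run in 1 of their windows, of 6 bases in Gas5, 9 in Snhg1, 5 in Snhg3, 7 in Snhg8 and 9 in Snhg12. Relative to the start, the runs began at -1 in Gas5, 4 in Snhg1, 2 in Snhg3, -1 in Snhg8 and -3 in Snhg12. The annotated transcripts of Snhg1 and Snhg3 thus do not begin with their run, whereas in Gas5, Snhg8 and Snhg12 the run spans the start. Gas5 has an additional annotated start upstream, whose longest run was 3 bases.
Gas5, upstream start (chr1:161034581-161034630, plus strand): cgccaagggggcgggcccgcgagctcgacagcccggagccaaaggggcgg
Among all 32851 RefSeq windows, 22.0% held a run of at least 5, as did 3 of 13 windows of other snoRNA host lncRNAs and 2 of 15 windows of protein-coding hosts. Runs that begin further upstream were not counted. Lincmd1, which is no snoRNA host, also had a run, of 9 bases. For contrast, the longest run at the start of Malat1 was 2 bases.
Malat1 (chr19:5802643-5802692, minus strand): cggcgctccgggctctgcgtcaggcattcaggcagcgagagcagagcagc
These are matches of letters at annotated starts, and the start used in C2C12 cells was not measured here.

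For Lincmd1 the promoter is of interest because the study concerns MyoD, which binds the E-box CANNTG and prefers CAGCTG. The 300 bases from 250 before the start onward (chr1:20669632-20669931, GRCm38.p6, plus strand) held 2 E-boxes, in capitals, at -195 and 15 bases relative to the start, and the second reads CAGCTG.
Lincmd1: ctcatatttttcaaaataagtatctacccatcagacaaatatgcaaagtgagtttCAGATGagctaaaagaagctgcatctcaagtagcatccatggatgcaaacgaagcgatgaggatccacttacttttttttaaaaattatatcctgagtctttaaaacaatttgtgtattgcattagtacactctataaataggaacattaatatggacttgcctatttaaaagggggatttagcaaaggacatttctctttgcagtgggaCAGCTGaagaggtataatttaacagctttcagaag
CAGCTG, which reads the same on both strands, occurred in 16.3% of all RefSeq windows of this length and CANNTG in 72.3%. Both Lincmd1 and Malat1, 2 of the members, held CAGCTG. The 2 mature microRNAs encoded at the locus are shown with their seeds, bases 2 to 8, in capitals.
miR-133b-3p: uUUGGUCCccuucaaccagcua
miR-206-3p: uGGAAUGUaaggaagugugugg
Their seeds differ, so they belong to different seed families.

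**Figure D1:**
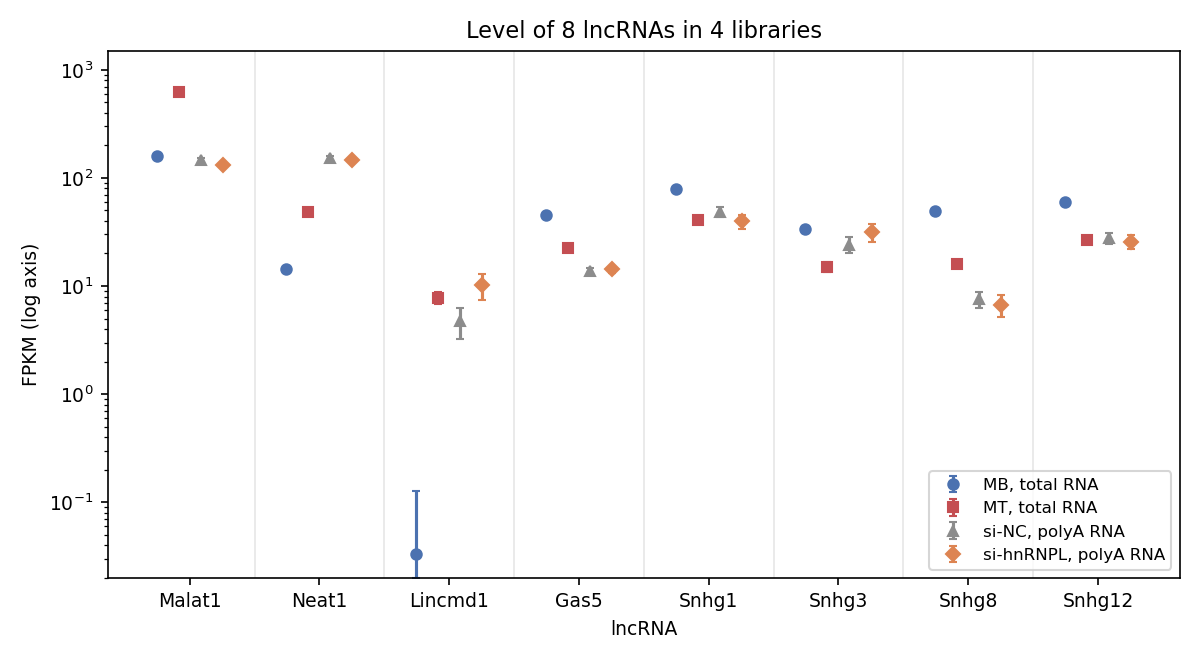
FPKM (log axis) of the 8 lncRNAs in the 4 libraries, with bars for the 95% interval within a library; the bar of Lincmd1 in MB reaches 0, below the axis. The 5 host genes are highest in MB (Snhg3 with an interval that overlaps si-hnRNPL), Malat1 is highest in MT, and Neat1 is highest in the polyA libraries.

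The members spanned from 0.0334 FPKM (Lincmd1) to 161 FPKM (Malat1) in MB, and from 7.77 to 628 FPKM for the same pair of genes in MT. In MB the order from high to low was Malat1, Snhg1, Snhg12, Snhg8, Gas5, Snhg3, Neat1 and Lincmd1, and no neighbours had overlapping intervals. In MT, Neat1 had moved from place 7 to place 2, ahead of all 5 host genes, and only Snhg8 (15.9 FPKM) and Snhg3 (14.9 FPKM) overlapped. In si-NC, Neat1 (152 FPKM) and Malat1 (146 FPKM) stood at the top with overlapping intervals, as did Snhg12 and Snhg3 further down. In si-hnRNPL the overlapping neighbours were Snhg1 with Snhg3, Snhg3 with Snhg12, and Lincmd1 with Snhg8.

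The comparison of MT with MB asks how these lncRNAs differ between proliferating and differentiated muscle cells. Malat1, Neat1 and Lincmd1 were higher in MT, and all 5 host genes were lower. Among 11694 entries with at least 1 FPKM in either library, 15.5% were higher and 28.5% lower by the same rule, so 3 of 8 and 5 of 8 members stand beside these shares. The median entry with at least 1 FPKM in both libraries fell by 0.23 on the log2 scale, and each change below is given as measured, before this shift is taken off. With FPKM rescaled to the same sum in each library the background became 28.4% higher and 16.7% lower. The members still counted 3 higher and 5 lower. That sum did not cover all named entries, whose FPKM added up to 621542 in MB and 296284 in MT. A rescaling on these wider sums was not made, and the host falls would be smaller on it.

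Malat1 (chr19:5795690-5802671 in mm9, 6982 bases in a single exon) had 161 FPKM in MB (interval 159.7 to 161.9) and 628 FPKM in MT (625.9 to 630.0). The MT library stood 3.91-fold higher, a log2 change of 1.96 (1.95 to 1.97), and 2.58% of entries had a larger rise. In MT it ranked 9 among 24850 named entries, against 408 in MB.

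Neat1 (chr19:5824710-5845480) lies 22038 bases from Malat1 on the same chromosome and is annotated in GENCODE with transcripts of 20771 bases in 1 exon and 3004 bases in 2 exons. It had 14.3 FPKM in MB (13.8 to 14.8) and 48.8 FPKM in MT (47.9 to 49.7). The intervals were far apart, with a 3.41-fold higher level in MT and a log2 change of 1.70 (1.65 to 1.76). The tables give 1 value for the gene, so its short and long forms are not separated.

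Within 100 kb of Malat1 or Neat1, 13 other genes were listed, and of the 12 with at least 1 FPKM in MB or MT none was called higher and 5 were lower. The largest rise there was 0.52 in log2 for Ehbp1l1 (28.2 and 40.8 FPKM). The largest fall was that of Pola2, a subunit of DNA polymerase alpha, at -1.96 (31.5 and 7.36 FPKM). Frmd8, the nearest neighbour of Neat1 at 5493 bases, had 23.8 FPKM in MB and 13.5 FPKM in MT.

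Other lncRNAs known from the nucleus gave a mixed but mostly higher group. Of 11 listed, 5 reached 1 FPKM in either library, and 4 were higher and 1 lower in MT, with a median of 1.02. Airn, the antisense RNA of the Igf2r locus, had the largest rise (0.268 and 2.97 FPKM, 1.65), and Pvt1 was the one that fell (7.65 and 4.53 FPKM, -0.65). For the proteins of both nuclear bodies the medians were below 0. Of 9 paraspeckle proteins, 7 were lower and none higher (median -0.76), with Rbm14 at 20.8 and 7.16 FPKM. Of 9 speckle proteins, 5 were lower and none higher (median -0.73), with the splicing factor Srsf7 at 74.1 and 30.8 FPKM and Srsf5 at 81.8 and 95.9 FPKM. With FPKM rescaled to the same sum, a look at the lists chosen after seeing the data, 3 of 9 paraspeckle proteins were lower and none higher (median -0.43), and 3 of 9 speckle proteins were lower and 1 higher (median -0.41). On that scale 4 of the 5 nuclear lncRNAs stayed higher and none was lower.

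Lincmd1 (chr1:20659963-20673039 in mm9) was listed at 0.0334 FPKM in MB with an interval of 0 to 0.127, and at 7.77 FPKM in MT (6.77 to 8.77). The log2((FPKM + 1) ratio) was 3.09 (2.88 to 3.30), larger than for all but 1.00% of entries. A plain ratio is not given, because the MB interval reaches 0. The 3 transcript units assembled from the reads inside this locus behaved alike, from 0.163 to 0.323 FPKM in MB and from 11.9 to 13.5 FPKM in MT. The genes of both microRNAs, Mir133b and Mir206, were listed at 0 in both total RNA libraries, Mir133b with a low-data status. Such libraries are not made to hold mature microRNAs, so these zeros say nothing of the mature forms.

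**Figure D2:**
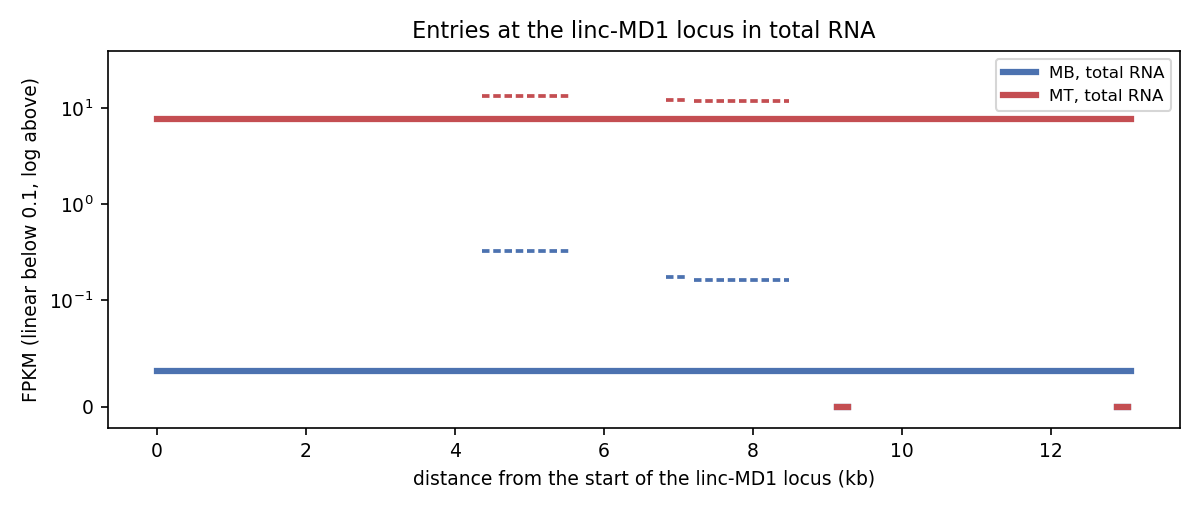
FPKM (linear below 0.1, log above) of each entry at the linc-MD1 locus in MB and MT, drawn from its start to its end by distance from the start of the locus (kb); thick lines are named genes and dashed lines are assembled units. The lncRNA and the 3 assembled units lie higher in MT, and Mir206 and Mir133b lie at 0 in both libraries, where the MT line covers the MB line.

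Of the genes of the linc-MD1 circuit (its microRNAs, their targets, and proteins that act on linc-MD1), 4 of 10 reached 1 FPKM in MB or MT. Mef2c, a muscle transcription factor whose mRNA is a known target of miR-135, had 0.0732 FPKM in MB and 4.004 FPKM in MT (2.22). Elavl1, which encodes the RNA-binding protein HuR, had 21.6 and 12.7 FPKM (-0.72). In all, 1 of the 4 was higher and 2 were lower, or 1 and none on the rescaled FPKM.

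Each of the 5 host genes had its lower value in MT, with no overlap of intervals. Snhg8 (chr3:123210470-123211254), the host of Snora24, had the largest fall, from 49.9 FPKM (48.0 to 51.9) to 15.9 FPKM (14.8 to 17.03), a log2 change of -1.59 (-1.70 to -1.48). Snhg12 (chr4:131864593-131866939), which holds Snora16a, Snora44, Snora61 and Snord99, had 59.3 FPKM (56.8 to 61.8) in MB and 26.4 FPKM (24.7 to 28.0) in MT, a change of -1.14.

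Snhg3 (chr4:131907848-131909601), the host of the U17 snoRNAs Snora73a and Snora73b, had 33.5 FPKM (31.0 to 35.9) and 14.9 FPKM (13.4 to 16.5), a change of -1.11.

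Gas5 (chr1:162965297-162968668), whose introns carry a series of C/D box snoRNAs, had 44.9 FPKM (44.0 to 45.9) in MB and 22.6 FPKM (22.0 to 23.3) in MT, a change of -0.96 (-1.01 to -0.91). Snhg1 (chr19:8797977-8800816), the U22 host gene, had 79.6 FPKM (76.1 to 83.1) and 40.7 FPKM (38.3 to 43.1), a change of -0.95. Summed over the 5 host genes, the level was 267 FPKM in MB and 121 FPKM in MT. The sum over all named entries was also lower in MT, at 621542 FPKM in MB and 296284 FPKM in MT. The drop of the host sum is therefore no sign of a smaller share of all FPKM. The log2 changes of the 5 genes ranged from -0.95 to -1.59. Of all entries, 5.11% had a larger fall than Snhg8 and 14.3% a larger fall than Snhg1.

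**Figure D3:**
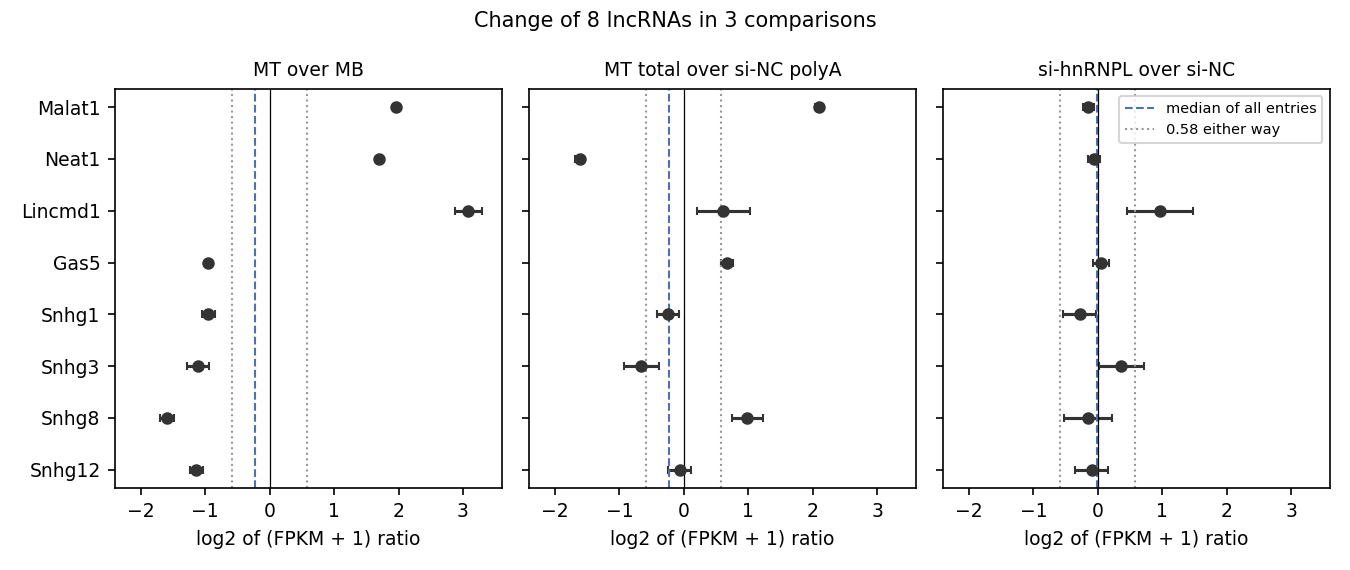
log2((FPKM + 1) ratio) of the 8 lncRNAs in 3 comparisons, with bars for the interval that follows from the 95% intervals of both libraries, dotted lines at 0.58 either way and a dashed line at the median of all entries. Malat1 and Neat1 lie on the same side in MT over MB and on opposite sides in MT total RNA over si-NC polyA RNA, and Lincmd1 is the only member past the line in si-hnRNPL over si-NC.

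Other genes of the same kind were also mostly lower in MT. Of 14 other snoRNA host lncRNAs, 11 reached 1 FPKM in MB or MT, and 7 were lower, 4 were between the limits and none was higher (median -0.67). Snhg5 had the largest fall (73.3 and 20.7 FPKM, -1.78), while Snhg18 had 5.57 and 8.21 FPKM (0.49). Of 20 protein-coding snoRNA hosts, 14 were lower and 1 was higher (median -0.71). Nop56, a core protein of C/D box snoRNPs that is itself a host, had 151 and 42.4 FPKM (-1.81), and the translation factor gene Eif4a2 was the one that rose (74.8 and 114 FPKM, 0.60). These counts depended on the scaling. After rescaling to the same sum 4 other host lncRNAs were lower and 2 higher (median -0.35). Of the coding hosts 3 were then lower and 1 higher (median -0.34). The 5 members were still called lower on that scale, but their falls were also smaller. Snhg1 (-0.59) and Gas5 (-0.61) lay only just past the limit.

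The proteins that package snoRNAs had a lower median than any of the host lists, -1.59 over 8 core genes, with 7 lower and none higher on either scale. Nhp2, of the H/ACA box particle, had 104 FPKM in MB and 27.9 FPKM in MT (-1.85), and Nop10, of the same particle, had 62.4 and 46.5 FPKM (-0.41). Of 9 decay factor genes that reached 1 FPKM, 4 were lower and 1 was higher (median -0.25). Upf3a had 27.6 and 12.3 FPKM (-1.10) and Smg6 had 8.38 and 14.5 FPKM (0.72). The median of this list turned to 0.10 on the rescaled FPKM, with 2 genes on each side. The proliferation markers, which moved in the same direction as the hosts, had a median of -2.28. Their part in the lower host levels was not tested.

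The snoRNAs themselves were poorly covered. Of 25 snoRNAs placed in the 5 hosts, 7 were matched in the tables and 3 reached 1 FPKM with a usable status in MB or MT. Snora44, in Snhg12, had 492 FPKM (389 to 595) in MB and 375 FPKM (293 to 457) in MT, with overlapping intervals. Snora16a, in the same host, had 48.1 FPKM (30.2 to 66.0) and 14.2 FPKM (5.23 to 23.2), a change of -1.69. Snord22, in Snhg1, had 314 FPKM (254 to 374) and 311 FPKM (256 to 366) while its host fell. FPKM of such short loci depends strongly on the length correction, and reads of the host's unspliced RNA can count toward them.

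**Figure D4:**
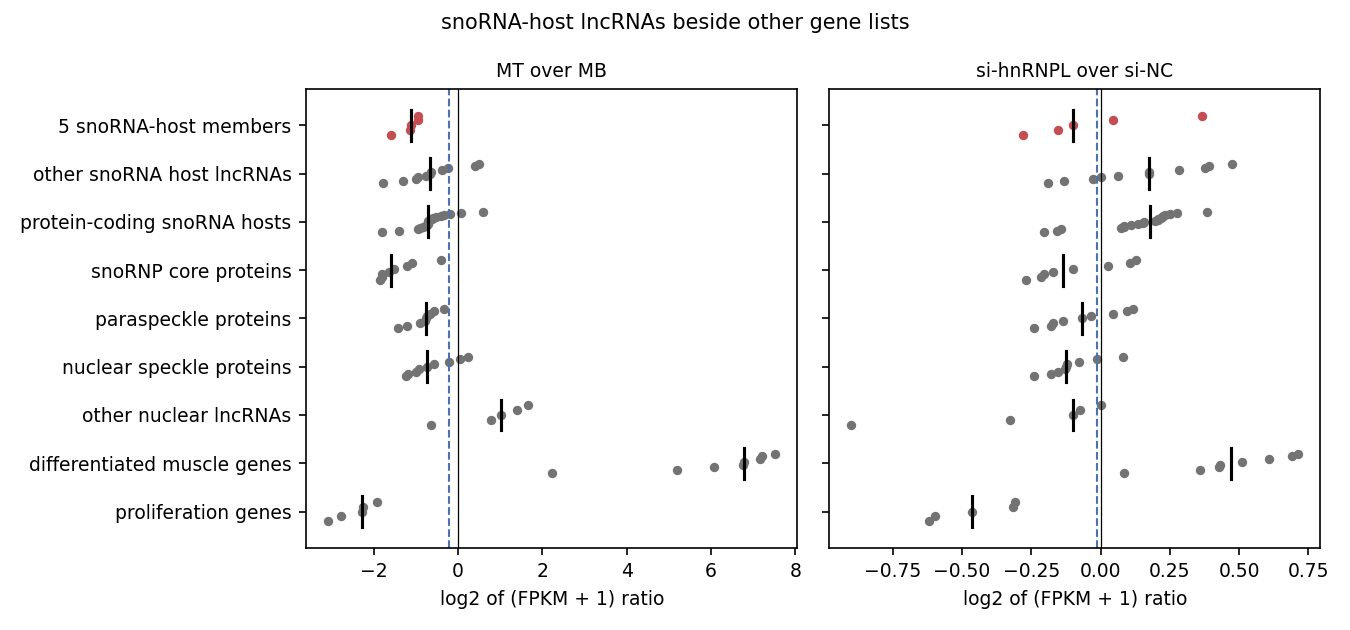
log2((FPKM + 1) ratio) in MT over MB and in si-hnRNPL over si-NC for the 5 snoRNA-host members (red) and 8 gene lists (grey), 1 point a gene with at least 1 FPKM in either library, a bar at each list's median and a dashed line at the median of all entries; the axes differ in range. In MT over MB the medians of the host lists and the snoRNP core proteins lie left of the median of all entries and that of other nuclear lncRNAs right of it, while in si-hnRNPL over si-NC only the muscle, proliferation and nuclear lncRNA lists have points past 0.58.

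MT total RNA and si-NC polyA RNA were set side by side to see how each lncRNA is represented in the 2 kinds of library. These libraries also differ in time in DM (72 h and 48 h), transfection, library preparation and sequencing platform, which cannot be told apart from RNA selection. Malat1 and Neat1 differed in opposite directions. Malat1 had 628 FPKM in total RNA and 146 FPKM (139 to 152) in polyA RNA, 4.31-fold higher in total RNA with a log2 change of 2.1 (2.04 to 2.16). Neat1 had 48.8 FPKM in total RNA and 152 FPKM (145 to 158) in polyA RNA. It was 3.11-fold higher in polyA RNA, with a change of -1.62 (-1.69 to -1.55). FPKM is scaled by transcript length, and the annotated Neat1 transcripts include lengths of 20771 and 3004 bases. The part of transcript length in the Neat1 difference was not tested.

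The ratio of Malat1 to Neat1 was therefore 11.3 in MB and 12.9 in MT, but 0.960 in si-NC and 0.901 in si-hnRNPL. It differed little within each kind of library and more than 10-fold between them. Among all 11384 entries tested, 10.0% were higher and 26.3% lower in total RNA, and 1.63% were higher by more than Malat1. Genes listed as giving RNAs without a polyA tail were set beside the members. All 8 of those tested were higher in total RNA (median 4.59), from Hist1h2bc (94.0 and 36.3 FPKM, 1.35) to Rpph1, the RNase P RNA (1444 and 2.02 FPKM, 8.90). Hist1h2bc was thus well detected in polyA RNA, and whether each RNA of the list lacks a tail in these cells was not tested.

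Of the other members, Snhg8 (15.9 and 7.55 FPKM, 0.99), Gas5 (22.6 and 13.9 FPKM, 0.67) and Lincmd1 (7.77 and 4.72 FPKM, 0.62) were higher in total RNA. Snhg3 was lower (14.9 and 24.2 FPKM, -0.66). Snhg1 had 40.7 and 48.4 FPKM (-0.24) and Snhg12 had 26.4 and 27.6 FPKM (-0.06), both inside the limits. In all, 4 members were higher and 2 lower. The median entry fell by 0.22, and with FPKM rescaled to the same sum the background turned to 31.1% higher and 10.7% lower. On that scale Snhg3 stood at -0.14 and Neat1 at -1.09, while Snhg8 (1.57), Gas5 (1.23) and Lincmd1 (1.20) lay further from 0 than Neat1, and the values of Snhg1 (0.29) and Snhg12 (0.48) changed sign.

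The same contrast gave few differences for other snoRNA host lncRNAs, with 1 higher and 2 lower of 11 (median -0.14). The protein-coding hosts were mostly lower in total RNA, 16 of 20 with 1 higher (median -0.81). Rps20 had the largest rise (515 and 86.2 FPKM) and Ncl, for nucleolin, the largest fall (12.5 and 77.5 FPKM). On the rescaled FPKM the other host lncRNAs turned to 4 higher and none lower (median 0.38), and 5 coding hosts were lower and 1 higher.

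The knockdown comparison sets the levels of these lncRNAs in differentiating cells given the siRNA against hnRNPL beside those in control cells. Hnrnpl itself, the target, had 95.1 FPKM (92.7 to 97.5) in si-NC and 85.9 FPKM (83.1 to 88.7) in si-hnRNPL, 0.904 of the control level and a log2 change of -0.14 (-0.20 to -0.09). Its mRNA was thus only slightly lower at this time, with intervals that did not overlap. The study examined its knockdown by Western blot, and the protein was not measured in these libraries. A member that was not called is therefore no sign that it does not depend on hnRNPL. In the total RNA libraries it had 111 FPKM in MB and 63.0 FPKM in MT.

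Lincmd1 was the only member called in this comparison. It had 4.72 FPKM (3.23 to 6.21) in si-NC and 10.2 FPKM (7.44 to 12.9) in si-hnRNPL, 2.15-fold higher with a log2 change of 0.96 (0.45 to 1.48). The intervals did not overlap, although the lower bound of the change lies below 0.58. Among 11313 entries, 1.28% were higher and 0.875% lower by the rule, and 0.292% had a larger rise. The differentiated muscle genes were on the same side, with 3 of 8 higher (2 on the rescaled FPKM), none lower and a median of 0.47, and summed to 2989 FPKM in si-NC and 4489 FPKM in si-hnRNPL. The muscle creatine kinase gene Ckm had 45.0 and 74.3 FPKM (0.71) and Mef2c had 2.63 and 2.85 FPKM (0.09). Of 5 proliferation genes 2 were lower (median -0.46). The part of these differences between the cultures in the Lincmd1 value was not tested.

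Malat1 had 146 FPKM in si-NC and 131 FPKM (126 to 137) in si-hnRNPL, a change of -0.15 (-0.24 to -0.06) that stays well inside the limits although the intervals did not overlap. Neat1 had 152 and 146 FPKM (-0.06, interval -0.15 to 0.03). Among the hosts, Snhg3 had 24.2 FPKM (20.1 to 28.2) and 31.5 FPKM (25.8 to 37.2), a change of 0.37 (0.02 to 0.71). Snhg1 had 48.4 FPKM (43.2 to 53.6) and 39.6 FPKM (33.8 to 45.5), a change of -0.28 (-0.54 to -0.03). For both of these genes the FPKM intervals of the libraries overlapped.

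Gas5 (13.9 and 14.4 FPKM), Snhg8 (7.55 and 6.68 FPKM) and Snhg12 (27.6 and 25.8 FPKM) differed by 0.05, -0.15 and -0.10. Summed over the 5 hosts the level was 122 FPKM in si-NC and 118 FPKM in si-hnRNPL. None of 11 other snoRNA host lncRNAs and none of 20 protein-coding hosts was called, with medians of 0.17 and 0.18 against -0.01 for all entries. Tpt1 had the largest rise among the coding hosts (2294 and 2993 FPKM, 0.38), and Snhg7 among the lncRNAs (3.59 and 5.38 FPKM, 0.48). Of 5 other nuclear lncRNAs tested, Airn was lower (6.24 and 2.88 FPKM, -0.90). None of the snoRNP core proteins, paraspeckle proteins, speckle proteins or decay factors was called. Among the RNAs listed as lacking a polyA tail, 3 of 6 were higher in si-hnRNPL and none lower (median 0.61). Rpph1 had 2.02 and 19.3 FPKM (2.75), and Rmrp, named after its values were seen, had 6.05 and 37.2 FPKM (2.44). The part of this difference between the polyA libraries in the members' values was not tested. Snord22, the only snoRNA of the members that could be compared, had 140 FPKM (0 to 302) and 60.5 FPKM (0 to 182), and both intervals reach 0.

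In the study, a tract of tandem CAAA repeats mediated hnRNPL binding to the enhancer RNA seRNA-1, and CACACA was named as the canonical hnRNPL motif. Each occurrence of the letters CAAA was counted here, on the sense strand of the exons of the 6 members with a GENCODE gene. Exons of all annotated transcripts of a gene were merged. The merged exons held 3760 bases for Gas5 and 2947 for Snhg1, more than their loci above (3372 and 2840 bases). The annotated form Gas5-001 has 502 bases in 12 exons, so the Gas5 value is not that of the spliced RNA alone. Tracts of repeats and CACACA were not counted. Gas5 had 6.91 per kb, Snhg1 5.43, Neat1 4.19, Malat1 4.15, Snhg12 1.23 and Snhg3 1.01, beside a median of 5.43 over 3231 noncoding genes with at least 500 exonic bases. Of those genes, 71.5% had fewer per kb than Gas5 and 2.63% fewer than Snhg3. This is a count of letters and no record of binding.

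Genes with the most similar pattern were sought over the 3 log2 changes, by Euclidean distance among genes with at least 1 FPKM in all 4 libraries. For Malat1 the nearest was Mylk2 (distance 0.224), and for Neat1 they were Trp53inp2 (0.0793) and Mapre3 (0.277). Mylk2, which encodes skeletal muscle myosin light chain kinase, had changes of 1.91 in MT over MB and 2.06 in total over polyA RNA. Trp53inp2 had 1.75 and -1.61 in the same order. For Lincmd1, Wisp2 (0.485) and Pik3ip1 (0.565) came nearest. Lincmd1 was itself under 1 FPKM in MB, so genes as low as it there were not among the candidates, and its distances cannot be set beside those of the other members.

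Among the hosts, Snhg12 was nearest to Atad3a (0.0558) and Usp39 (0.0579), Snhg1 to Khdrbs3 (0.0661) and Ctbp2 (0.0889), and Snhg3 to Trib3 (0.0751) and Slc48a1 (0.114). Gas5 was nearest to Syt12 (0.1001) and Tgif2 (0.108), and Snhg8 to Xpo4 (0.311) and Foxs1 (0.387). No snoRNA host from the fixed lists was among these nearest genes. The distances rest on 3 changes from 4 single libraries, and the MT and si-NC libraries each enter 2 of the changes.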

How the data were processed

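RNA from 4 C2C12 cultures was sequenced, 1 library per condition. The authors mapped reads to mm9 with TopHat2 and deposited FPKM values estimated with Cufflinks, with 95% intervals. The annotation was not given in the sources used here. The total RNA libraries were strand-specific, and the strand setting of the counting was not given in the sources used here. No count columns were used, so depth enters only through the intervals.

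Each change is a log2((FPKM + 1) ratio) with an interval from both half-widths in quadrature, and called at 0.58. Background shares cover named entries with at least 1 FPKM in either library; 0 columns were left unmapped. Locus starts in the files count from 0 and are given plus 1. Sequences came from RefSeq tables (GRCm38.p6): windows were matched for 7 of the 8 members, not Neat1. Exons came from GENCODE on NCBIM37 (mm9). The named genes are the 8 members, Hnrnpl, the neighbours of Malat1 and Neat1 within 100 kb, the microRNA genes at Lincmd1, the largest rise and fall of each list, and the 2 nearest patterns; a gene that this rule selects is not reported here. Members and lists were chosen with earlier results of these data known. The code was tested on simulated data. The analysis used Python 3.11.15, numpy 2.4.6, pandas 2.3.3 and matplotlib 3.10.9. Alternatives were a different scaling of the gene lists, chosen after seeing the data, and other pseudocounts (0.1 and 0.01), scalings, a 2-fold limit and summed entries. The GRO-seq and CLIP-seq data were not analysed here.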

Additional observations from a re-analysis of the deposited data

How the results depend on the processing

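With 1 library per condition no replicate could be left out, and the intervals do not limit variation between cultures. No paired analysis was possible because each condition had 1 library. No member that was called changed direction under another pseudocount (0.1 or 0.01), centring, rescaling to the same sum, upper-quartile scaling or summing of entries with the same symbol. In MT over MB, the 3 members higher and 5 lower stayed at those numbers under these settings, and at a 2-fold limit 3 were lower. Snhg1 lay closest to the limit, at -0.59 after rescaling to the same sum. The wider sum over all named entries was not used for rescaling, and the host falls in MT would be smaller on it. Lincmd1 in MT over MB depended on the pseudocount, at 5.88 with 0.1 and 7.49 with 0.01. In si-hnRNPL over si-NC, 0 members were higher at a 2-fold limit, since the pseudocount of 1 holds Lincmd1 at 0.96, against 1.09 with 0.1 and 1.10 with 0.01. In MT total over si-NC polyA, 1 member was lower after centring on the median, after rescaling to the same sum and after upper-quartile scaling, and 1 was higher and 1 lower at a 2-fold limit. Of 144 values of single members under other settings, 95 moved by less than the interval of the change and 49 by more.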
